A study of Mus musculus with 2 samples.

Results

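Prostaglandin genes were examined across a pair of Affymetrix arrays of mouse uterine epithelium. All 10 genes of a list were sought, which was chosen with earlier results of these data known. They were the phospholipase Pla2g4a, the cyclooxygenases Ptgs1 and Ptgs2, and the synthases Ptges, Ptgis and Ptgds. The others were the degrading enzyme Hpgd, the transporter Slco2a1, and the prostaglandin E2 receptors Ptger2 and Ptger4. The members were every probe set that the platform annotation assigns to 1 of these genes and to no other. They came to 18 probe sets of 9 genes, among 18193 genes with such a probe set on the array. No probe set was assigned to Ptgs1, so that gene was not analysed here. The study used C57BL/6 mice on day 4 of pregnancy, with 1 array of RNA from Msx1Msx2 floxed controls and 1 array of RNA from Msx1Msx2-null mice, in which the floxed homeobox genes Msx1 and Msx2 were removed by PRcre. This Cre acts where the progesterone receptor gene is active, which in the uterus includes stroma and muscle as well as epithelium. The epithelium of both genotypes was freed with trypsin and squeezed out with forceps. The labels disagree on the material: the design text gives epithelial cells from 5 mice of each genotype, and the extraction text gives stromal cells from 4. Nothing states whether an array holds RNA of 1 mouse or a pool.

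Prostaglandins are made when a phospholipase frees arachidonic acid from membranes, a cyclooxygenase turns it into prostaglandin H2, and a terminal synthase converts that into prostaglandin E2, D2, prostacyclin or another product. Carriers move prostaglandins across membranes, 15-hydroxyprostaglandin dehydrogenase inactivates them inside the cell, and receptors coupled to G proteins pass the signal on. In the mouse uterus these lipids are known for their part in implantation and in the stromal reaction that follows, and loss of the cytosolic phospholipase delays implantation.

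With 1 array per genotype no test could be run and no difference has a replicate check. The number of arrays limits the precision. Values are MAS5 signals, which are brightness units scaled alike on both arrays, and differences are log2 null minus control. A signal floor of 21.1, the 50th percentile of all signals other than those of control probe sets, marked what was treated as measured. A signal under it was set to the floor, so that such a fold is a bound and is written "at least". Where a gene had several measured probe sets, their differences scattered about the gene's mean with an SD of 0.38 (log2, 4645 genes). This scatter is the yardstick used here, and it contains no variation between mice. Signals of different probe sets do not compare, since each hybridises with its own efficiency.

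The labels and the purity of the material were checked first. Msx1 was 82.1-fold and 59.0-fold lower in the null by its 2 probe sets. Msx2 was 2.69-fold lower by 1 probe set and below the floor on both arrays by the other. The deleted exons are not named in the labels, and a probe set outside them need not register the deletion. All 8 epithelial markers, among them Krt8, Epcam and Cdh1, were above the floor on both arrays, and none differed by 2-fold (range -0.35 to 0.55). Genes of other cells were present too. All 8 stromal markers lay above the floor, with signals summing to 9230 in the control and to 11501 in the null, and 7 of 8 were higher in the null (median 0.59). Of 6 smooth muscle markers, 5 had null signals at least 2-fold higher, with summed signals of 299 and 948. Of these, Actg2, Cnn1 and Myh11 were above the floor on the null array only. Their folds are bounds, and the floor allowed them to differ only upwards. The sum was mostly Acta2 (163 and 595), and Des was lower. Of 5 gland markers 3 were at least 2-fold higher and 1, Spink1, at least 2-fold lower, and their sums were 604 and 1411. Spink1 was above the floor on the control array only, and Prss29 on the null array only, so the floor fixed their directions too. Endothelial markers summed to 240 and 332, macrophage markers to 5100 and 5428, and mesothelial markers, all 5 lower in the null, to 1231 and 882. Such sums follow the brightest probe sets. The macrophage sum was mostly Cd14 (4260 and 4086), the 1 macrophage marker that was lower, while 4 of 5 were higher (median of the 5, 0.64). Of 4 NK cell markers 3 had a probe set and 2 were measured, 1 higher and 1 lower, with sums of 85.7 and 86.9.

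Across the pathway the members went both ways: the transporter Slco2a1 and the prostaglandin D synthase Ptgds were higher on the null array, and the receptor Ptger2 and the degrading enzyme Hpgd were lower. Of the 18 probe sets 14 were measured, 13 on both arrays and 1 on the null array only. Among those 14, 6 (42.9%) were 2-fold higher or more in the null, where 6.25% of the 20942 measured probe sets with a single gene were, and 2 (14.3%) were at least 2-fold lower, where 6.49% were. The 6 higher probe sets belong to only 2 genes, 4 to Slco2a1 and 2 to Ptgds. They share a target and are not separate results. The 1 probe set measured on the null array only is among these 6, and the floor allowed it to differ only upwards. Counted by gene at the brightest probe set, 2 of 8 measured members (25%) were at least 2-fold higher, against 7.73% of 11662 genes, and 2 of 8 (25%) at least 2-fold lower, against 4.75%. With so few members, 1 gene changes such a share by a large amount. The list was also chosen with earlier results of these data known, so these shares describe the list and test nothing. The median difference of the 8 genes was 0.17, beside 0.08 for all genes. Setting the arrays to their hybridization spike-in controls, a scaling chosen after the data were seen, moved the median of all genes to -0.20 and the share of higher genes among all 2-fold genes from 62.0% to 35.3%. In bulk RNA, fewer cells of a type and less RNA per cell cannot be told apart.

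**Figure D1:**
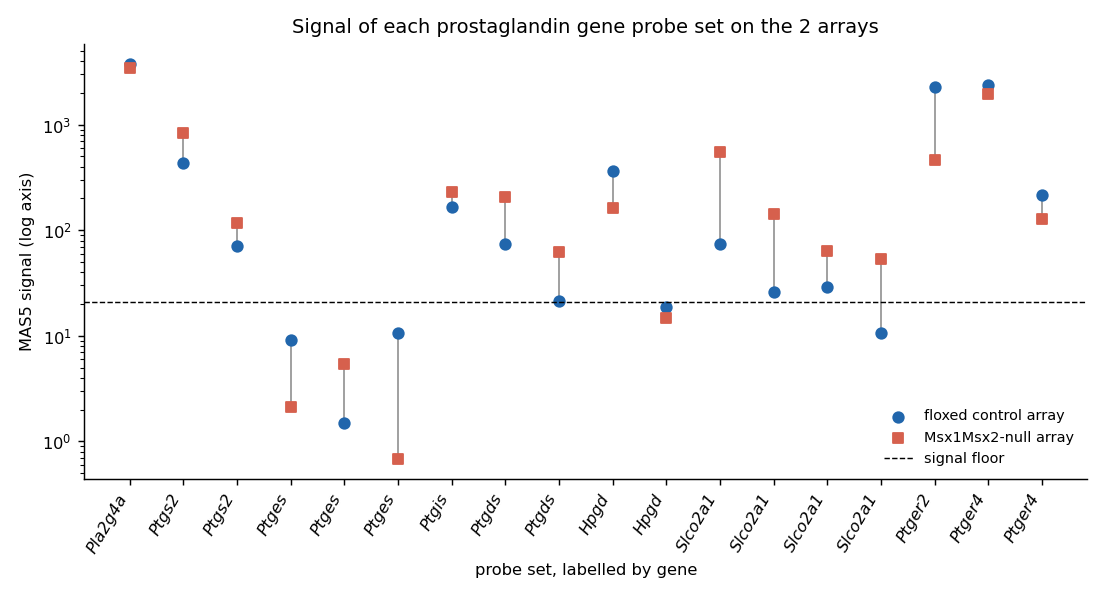
MAS5 signal of each of the 18 probe sets (log axis) for floxed control (circles) and Msx1Msx2-null (squares), 1 array each, with a dashed line at the floor of 21.1. All 4 Slco2a1 and both Ptgds probe sets are higher on the null array, Ptger2 and the brighter Hpgd probe set are lower, and the 3 Ptges probe sets lie below the floor on both. Heights of different probe sets do not compare.

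The only listed phospholipase, at the start of the pathway, was nearly level. Pla2g4a, the cytosolic phospholipase A2 that releases arachidonic acid, had signals of 3780 (control) and 3443 (null) by its single probe set. That is a 1.10-fold lower signal (log2 -0.13), smaller than the scatter of 0.38 among same-gene probe sets. Its probe set, 1448558_a_at, has a suffix that marks transcripts of the same gene with alternative ends.

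Ptgs2, the inducible cyclooxygenase that makes prostaglandin H2, was higher in the null but short of 2-fold. The probe set 1417262_at read 430 on the control array against 832 on the null array (1.93-fold, log2 0.95), and 1417263_at gave 70.2 and 117 (1.67-fold, log2 0.74). Both pointed the same way and lay 0.21 apart. Of all measured probe sets 6.85% were as high or higher than the first. Ptgs2 crossed the 2-fold line only with array medians set equal, at 1.02, and was at 0.66 with the spike-in scaling.

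Among the terminal synthases of the list, Ptgds and Ptgis read higher on the null array, and Ptges was below the floor on both. Ptgds, the lipocalin-type prostaglandin D synthase, read 74.4 on the control array against 208 on the null array by 1423859_a_at (2.80-fold higher, log2 1.49). By 1423860_at it gave 21.4 and 62.2 (2.91-fold, log2 1.54), where the control signal was just over the floor. The 2 probe sets differed by only 0.06 on the log2 scale. The other prostaglandin D synthase gene, Hpgds, the form of mast cells and other blood cells, lay below the floor on both arrays, as did the mast cell markers Cpa3, Tpsb2, Cma1 and Fcer1a. The fifth marker of that list, Kit, which is not limited to mast cells, was lower in the null at -1.11. Most stromal, gland and smooth muscle markers were higher on the same array, all but Dcn, Spink1 and Des. Among the higher ones, Actg2, Cnn1, Myh11 and Prss29 were measured on the null array only. The part of these cell types in the Ptgds difference was not tested.

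Ptgis, prostacyclin synthase, read 167 for the control and 233 for the null, 1.39-fold higher (log2 0.48). The stromal markers had a median of 0.59 on the same arrays, and the part of stromal RNA in the Ptgis value was not tested. Ptges, the inducible prostaglandin E synthase, was below the floor on both arrays by all 3 probe sets, with signals from 0.681 to 10.6, so no fold is given.

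Slco2a1, the prostaglandin transporter that carries prostaglandins into cells, showed the largest gain of the list. Its probe set 1420913_at read 73.5 for the control and 553 for the null, a 7.52-fold higher signal (log2 2.91). The probe set 1444242_at gave 26.2 and 143 (5.45-fold, log2 2.45). With 29.1 and 63.6, 1420914_at was 2.19-fold higher (log2 1.13), and 1450032_at, at 10.7 and 53.7, was at least 2.54-fold higher. All 4 thus pointed the same way and all passed 2-fold. The direction of 1450032_at was fixed by the floor, since it was measured on the null array only. Sizes were spread over 1.78 on the log2 scale, so no single size can be given. The smallest, 1420914_at, was short of 2-fold with no floor (0.82) and with the spike-in scaling (0.84). Control signals of the last 3 lay near or under the floor. Only 0.310% of all measured probe sets were as high or higher than the first. Slco2a1 is known from endothelium as well as epithelium. On these arrays the endothelial markers Pecam1, Cdh5 and Tek stood at 0.21, 0.02 and -0.28, Kdr at 0.86 and Emcn at 1.03. The part of endothelial, gland, stromal and muscle RNA in the Slco2a1 difference was not tested.

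Hpgd, 15-hydroxyprostaglandin dehydrogenase, which oxidises prostaglandins to inactive forms once they are inside the cell, was lower in the null. Its probe set 1419905_s_at read 366 for the control and 162 for the null (2.27-fold lower, log2 -1.18). The suffix of this probe set marks sequence shared with other transcripts, and the second probe set, 1419906_at, lay under the floor on both arrays at 18.6 and 14.7. The Hpgd difference therefore rests on a single probe set that may not detect Hpgd alone. Epithelial markers had a median of -0.05 on the same arrays, and the 5 mesothelial markers ran from -0.72 to -0.35. The part of either in the Hpgd difference was not tested.

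The receptors of prostaglandin E2 that raise cyclic AMP were unequal. Ptger2, which encodes EP2, read 2276 on the control array against 460 on the null array by its single probe set, 1449310_at, a 4.95-fold lower signal (log2 -2.31). This was the largest deficit of the list, and only 0.339% of measured probe sets were as low or lower. Ptger4, which encodes EP4, was lower by less: 2380 and 1951 by 1424208_at (1.22-fold, log2 -0.29), and 217 and 129 by 1421073_a_at (1.68-fold, log2 -0.74). Its 2 probe sets pointed the same way and lay 0.46 apart. Whether the EP2 and EP4 differences differ could not be tested with 1 array of each genotype. The 5 mesothelial markers ran from -0.72 to -0.35 and the epithelial markers from -0.35 to 0.55 on the same arrays, and their part in the Ptger2 difference was not tested.

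**Figure D2:**
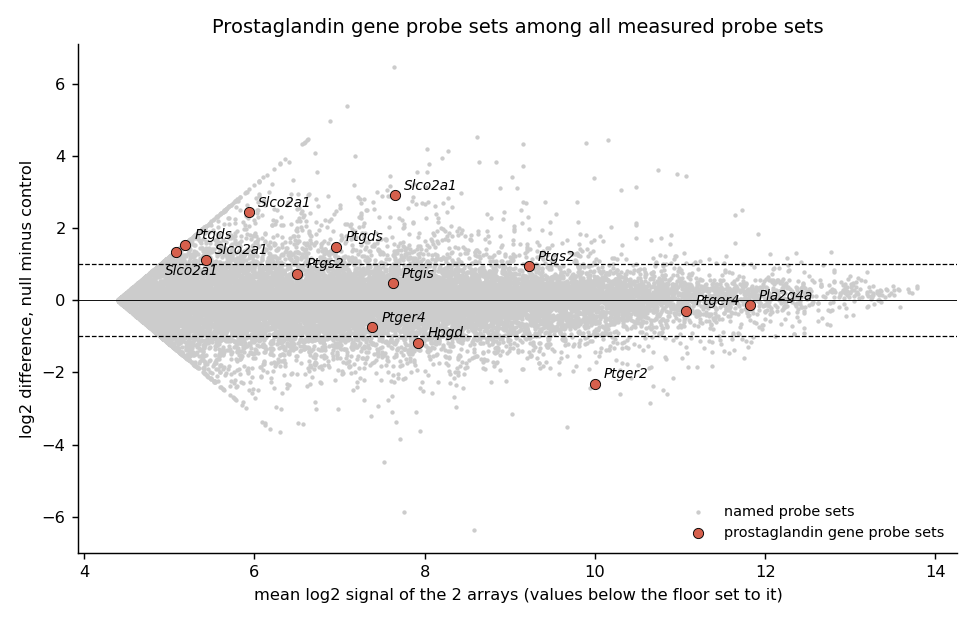
Log2 difference, null minus control, against mean log2 signal for all 20942 measured probe sets with a single gene (grey) and the 14 measured prostaglandin probe sets (red, labelled by gene), with dashed lines at 2-fold. Slco2a1 at 2.91 and Ptger2 at -2.31 lie towards opposite edges of the cloud, while Pla2g4a and the brighter Ptger4 probe set sit near 0; the straight left edges are values set to the floor.

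Because Slco2a1 and Ptger2 lay furthest apart, in opposite directions, the 250 bases before the annotated start of each gene are shown, from RefSeq (GRCm38.p6), read along the gene. The Slco2a1 window is chr9:103008237-103008486 and the Ptger2 window is chr14:44987861-44988110, both on the plus strand. Capitals mark matches on either strand to 5 motifs chosen after the sequences had been seen: TAATTG, a sequence bound by Msx homeodomains; AGAACA and AGGTCA, half-sites of steroid and other nuclear receptors; GGGCGG, the GC box; and TATAAA, the TATA box.
Slco2a1: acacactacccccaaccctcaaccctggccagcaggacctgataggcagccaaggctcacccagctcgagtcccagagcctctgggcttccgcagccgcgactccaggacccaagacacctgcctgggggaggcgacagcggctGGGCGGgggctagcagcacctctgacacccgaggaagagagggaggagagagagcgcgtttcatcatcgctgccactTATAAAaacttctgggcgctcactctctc
Ptger2: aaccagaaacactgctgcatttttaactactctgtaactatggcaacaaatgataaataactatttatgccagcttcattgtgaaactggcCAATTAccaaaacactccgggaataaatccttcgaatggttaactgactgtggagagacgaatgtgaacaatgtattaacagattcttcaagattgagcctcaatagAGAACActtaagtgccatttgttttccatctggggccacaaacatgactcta
The Slco2a1 window held a GC box starting 106 bases and a TATA box starting 29 bases before the start, and 63.2% of its bases were G or C. The Ptger2 window held TAATTG on the opposite strand, from 159 bases before the start, and AGAACA from 52 bases before it, with 38.0% G or C, against a median of 52.4% over all promoters. Of the 32851 promoter windows of this length, 7.17% held TAATTG, 16.1% AGAACA, 14.0% AGGTCA, 32.7% GGGCGG and 12.4% TATAAA. Of the listed genes 9 matched the RefSeq table, all but Ptgis, with 10 windows between them. Of these 10 windows, 1 held TAATTG (Ptger2), 4 held AGAACA, 1 held AGGTCA, 5 held GGGCGG and 2 held TATAAA. No motif overlapped another in either window shown. A match is a run of letters, not a bound site.

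At the brightest probe set, directions of the 8 measured genes held under 7 other settings of scaling and floor. The other floors left these differences unchanged, and median and spike-in scaling each shifted all 8 by the same amount. Slco2a1 ran from 2.62 to 2.98, Ptgds from 1.20 to 1.56, Ptger2 from -2.60 to -2.24 and Hpgd from -1.47 to -1.11. Each of these stayed past 2-fold in all 8 settings. Pla2g4a ran from -0.43 to -0.06, Ptger4 from -0.58 to -0.21 and Ptgis from 0.19 to 0.55, and none of these brightest probe sets reached 2-fold. The dimmer Ptger4 probe set, 1421073_a_at, passed 2-fold with the spike-in scaling, at -1.04. With the floor at the 67th percentile, however, only the brightest of the Slco2a1 probe sets and of the Ptgds probe sets passed 2-fold, 2 probe sets in place of 6.

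**Figure D3:**
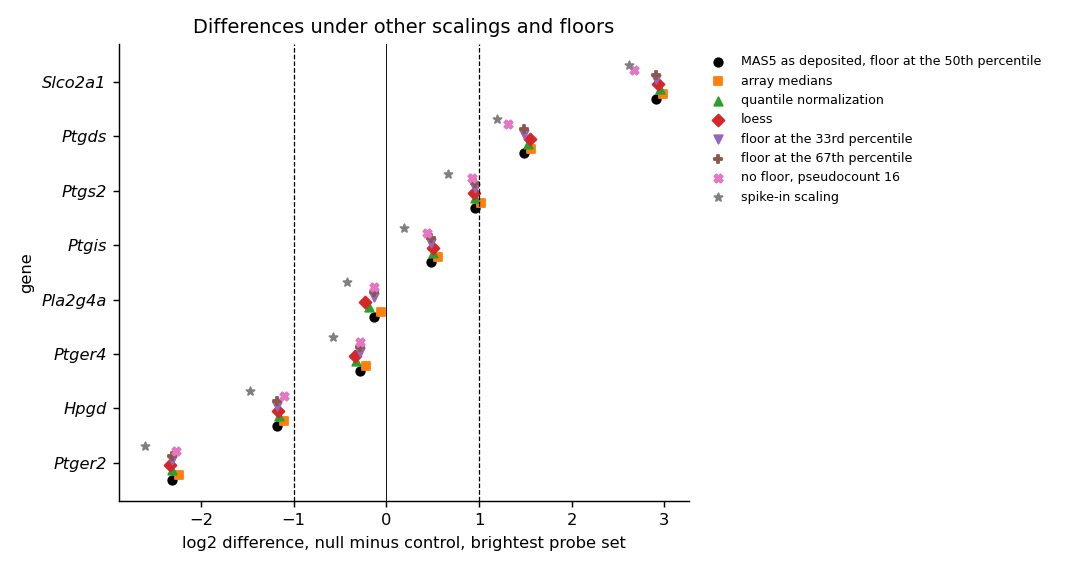
Log2 difference, null minus control, of the 8 measured genes at their brightest probe set under the deposited scaling and 7 other settings (symbols), with dashed lines at 2-fold. Slco2a1, Ptgds, Hpgd and Ptger2 stay outside the lines in every setting, and the spike-in scaling shifts every gene downwards.

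The neighbouring genes of arachidonic acid metabolism were taken from a list of 53. Of these 47 had a probe set and 25 were measured. At the brightest probe set, 3 were at least 2-fold higher (12.0%, where 7.73% of all genes were) and 3 at least 2-fold lower (12.0%, where 4.75% were), and the median was 0.13. These shares come from small counts and from a list chosen with earlier results of these data known.

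Among the phospholipases and their regulators (9 measured), Pla2g12a, a secreted phospholipase A2, was 2.94-fold higher, with signals of 116 for the control and 342 for the null. Pla2g10, a secreted phospholipase A2, was level at 3360 and 3405, and Anxa1, the glucocorticoid-induced protein that restrains phospholipase A2, was 1.48-fold higher at 7329 and 10876. Of the synthases 3 were measured. Cbr1, a carbonyl reductase that can act on prostaglandins, was 1.85-fold higher, and Ptges2, another prostaglandin E synthase, stood at -0.31. Tbxas1, thromboxane synthase, was below the floor on both arrays.

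Of the transport genes, Abcc4, which exports prostaglandins, was 2.02-fold higher (1003 and 2029). It passed 2-fold in 5 of 8 settings only. Slco3a1, a carrier of the same family as Slco2a1, had 3 probe sets at 0.84, 0.66 and 1.24. Of the breakdown genes, Ptgr1, which reduces prostaglandin metabolites after Hpgd has acted, was 1.89-fold lower (1557 and 822), and the carbonyl reductase Cbr2 was also 1.89-fold lower (4331 and 2290). Under the spike-in scaling both passed 2-fold, at -1.21.

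Receptors other than EP2 and EP4 were mostly out of range. Of 10 listed, 7 lay below the floor on both arrays, among them Ptger1 (EP1), Ptgfr, Ptgir, Ptgdr and Tbxa2r, the receptors for prostaglandin E2, F2-alpha, prostacyclin, D2 and thromboxane. Ptger3, which encodes EP3, was 1.74-fold lower (153 and 87.9). Ptgfrn, a regulator of the prostaglandin F receptor, was 2.04-fold lower by its brighter probe set (1209 and 594), which passed 2-fold in 7 of 8 settings, and the dimmer one gave a bound of -0.43. Ppard, a nuclear receptor linked to prostacyclin in the uterus, stood at 0.16 from a signal near the floor.

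Genes of the lipoxygenase branch, which compete for the same arachidonic acid, included the largest differences of this list. Alox15 was 7.26-fold lower and Alox12e, an epidermal-type lipoxygenase, 3.74-fold lower (1886 and 505), while Alox5ap, which presents arachidonic acid to 5-lipoxygenase, was 2.38-fold higher (475 and 1129), though with the spike-in scaling it stood at 0.96. Alox5 itself lay below the floor on both arrays. Macrophages express Alox5ap, and 4 of 5 macrophage markers were higher on the same array (median 0.64). Their part in the Alox5ap difference was not tested.

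**Figure D4:**
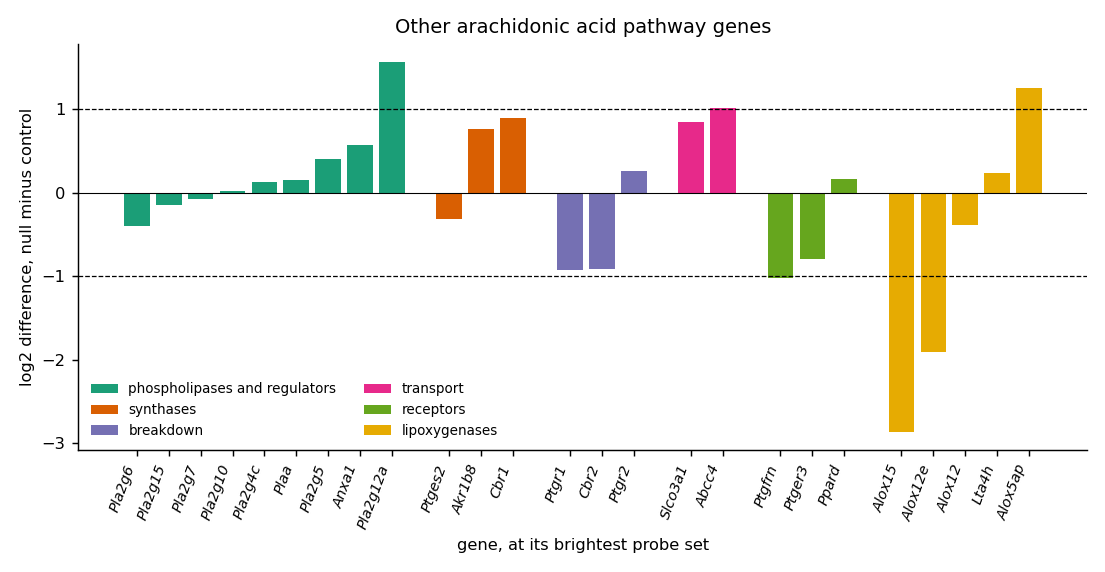
Log2 difference, null minus control, of the 25 measured genes of the wider arachidonic acid list at their brightest probe set (bars, coloured by role), with dashed lines at 2-fold. Alox15 and Alox12e have the largest deficits at -2.86 and -1.90, and Pla2g12a the largest excess at 1.56.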

How the data were processed

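Each of the 2 arrays was measured once. The authors deposited linear signal intensities, for which the submitters' processing notes name MAS5 and version 1 of Affymetrix Expression Console. MAS5 subtracts background and scales each array, and the 2% trimmed mean of the deposited intensities was 150.001 on both. Such scaling removes any difference in total RNA. The genome build is not given in the sources used here.

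Gene names came from the platform annotation, in which 34945 probe sets had 1 gene and 932 several. Of 45037 in all, control probe sets aside, those with several or none were left unnamed. Signals were taken to log2 with the floor at the 50th percentile. The brightest probe set, by mean log2 signal, stood for each gene. The comparison code was tested on simulated data. Calculations used Python 3.11.15, pandas 2.3.3 and numpy 2.4.6.

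Members and lists were chosen with earlier results of these data known. Named are all members, every gene of the wider list past 2-fold and up to 4 more by signal; other genes of that list were named after their values were seen. Alternatives were a floor at the 33rd or the 67th percentile, a pseudocount of 16 in place of a floor, scaling by loess (span 0.3), by quantiles or by medians, a threshold of 1.5-fold or 3-fold, the median of all probe sets of a gene, leaving out IDs that mark shared or alternative sequence, and, added after the data were seen, spike-in scaling.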

Additional observations from a re-analysis of the deposited data

How the results depend on the processing

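Of 95 values of single probe sets under 7 other scalings and floors, 91 moved by less than 0.38 on the log2 scale, 4 moved by more and none of those past 2-fold changed sign. Those 4 were Slco2a1 1450032_at (2.33 with the floor at the 33rd percentile), Slco2a1 1444242_at (0.97 with it at the 67th and 1.91 with no floor) and Ptgds 1423860_at (1.07 with no floor). In place of 6, higher probe sets numbered 2 with the floor at the 67th percentile and 2 at a 3-fold threshold, and otherwise from 5 to 8. Lower probe sets numbered 3 with the spike-in scaling and at 1.5-fold, 1 at 3-fold and 1 once IDs marking shared or alternative sequence were left out, in place of 2, since Hpgd then has no measured probe set. Without those IDs Pla2g4a is dropped as well, and the median of the remaining 6 genes was 0.72 in place of 0.17. The median was below 0 with the floor at the 33rd percentile (-0.09), with no floor (-0.13) and with the spike-in scaling (-0.12), so its sign is not settled. Signals near the floor limit the sizes given for Slco2a1 and Ptgds.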

Other observations

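Ptgr2, which reduces prostaglandin metabolites as Ptgr1 does, had 6 probe sets that did not agree in direction. The probe sets 1433503_at and 1453156_s_at were both higher in the null at 0.26 (351 and 420, and 96.0 and 115). The probe set 1451744_a_at was lower at -0.92 (160 and 84.3). Another 3 gave bounds of -0.81, -0.94 and -0.30, with null signals below the floor. The plot of the wider list shows only the brightest of them.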
